A study of Mus musculus with 4 samples.

Results

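The 35 genes described here encode inflammatory chemokines and cytokines, the enzyme PTGS2, regulators of the NF-kB pathway and the adhesion molecules ICAM1 and VCAM1. Their accessibility was read from every counted region of open chromatin that overlapped one of the genes or the 10 kb on either side of it. This gave 208 of the 255864 regions in the table, each taken once where neighbouring genes shared it. The windows of the 35 genes merged into 29 stretches of the genome, of which 4 held more than 1 gene. Of the 35 genes 34 had at least 1 region, and *Il1b*, which encodes the cytokine interleukin-1 beta, had none.

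ATAC-seq, in which the Tn5 transposase cuts and tags open DNA so that read density reports how accessible a site is, had been carried out on primary osteoblasts from 3-day-old C57BL/6 mice. WT mice were wild type by their labels, which do not say whether they carried floxed alleles without Cre. TCKO mice carried Prx1-Cre together with Tet1fl/fl, with Tet2fl/fl and with Tet3fl/fl, so they lacked the 3 TET dioxygenases, which oxidise 5-methylcytosine, in cells that had expressed the limb and skull mesenchymal driver *Prx1*. Cells of other lineages in the same cultures would keep the genes. There were 2 samples of each genotype by the labels, although a protocol text gave 3 repeats, and the counts had been merged into 1 column per genotype. There is therefore no replicate check of any difference below, and no p-value is given. WT held 56898657 counts and TCKO 34608167.

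Chemokines are small secreted proteins that draw leukocytes to a tissue, and their genes lie in clusters that arose by duplication. Many of them are transcribed when NF-kB, a dimer of proteins such as those made from *Nfkb1* and *Relb*, is released from its inhibitor and enters the nucleus, where it often acts beside AP-1 and C/EBP factors. Cells of the osteoblast lineage make several of these proteins, among them CXCL12, which holds haematopoietic cells in the marrow, and IL6, LIF and CCL2, which act on osteoclasts or their precursors.

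Sequences of 6 regions are shown first, since the values below return to them. They are the promoter regions of *Il6* and *Cxcl1*, which held many reads and the NF-kB consensus, the promoter region of *Cxcl11*, which carried NF-kB and AP-1 letters together, and the regions near *Icam1*, *Lif* and *Ptgs2* that lay farthest from an equal share in both genotypes. The *Ptgs2* region was chosen after its values were seen. Each is the plus strand of GRCm38 from the RefSeq genome, at most 300 bases around the middle of the region, with motif matches on either strand in capitals.
*Il6* promoter region, chr5:30012905-30013204: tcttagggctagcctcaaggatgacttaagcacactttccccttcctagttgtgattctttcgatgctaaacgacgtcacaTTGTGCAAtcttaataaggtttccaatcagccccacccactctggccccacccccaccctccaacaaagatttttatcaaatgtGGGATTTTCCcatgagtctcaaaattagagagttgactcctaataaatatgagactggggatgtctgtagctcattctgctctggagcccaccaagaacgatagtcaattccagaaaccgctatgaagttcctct
*Cxcl1* promoter region, chr5:90890988-90891287: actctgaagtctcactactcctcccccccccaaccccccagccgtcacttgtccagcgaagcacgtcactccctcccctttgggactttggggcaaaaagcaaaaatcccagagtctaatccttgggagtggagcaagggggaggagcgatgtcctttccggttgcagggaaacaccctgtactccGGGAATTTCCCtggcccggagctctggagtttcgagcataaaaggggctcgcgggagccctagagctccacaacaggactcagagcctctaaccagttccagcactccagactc
*Cxcl11* promoter region, chr5:92363257-92363466: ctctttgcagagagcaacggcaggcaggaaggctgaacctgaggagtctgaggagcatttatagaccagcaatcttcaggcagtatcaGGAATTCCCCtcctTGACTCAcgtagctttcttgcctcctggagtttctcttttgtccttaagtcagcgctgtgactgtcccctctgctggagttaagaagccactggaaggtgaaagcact
Upstream of *Icam1*, chr9:21010447-21010691: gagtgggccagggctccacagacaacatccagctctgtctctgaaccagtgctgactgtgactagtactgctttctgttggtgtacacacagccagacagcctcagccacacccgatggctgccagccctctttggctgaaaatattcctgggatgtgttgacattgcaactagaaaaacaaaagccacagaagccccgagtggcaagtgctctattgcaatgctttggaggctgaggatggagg
Intron of *Lif*, chr11:4263265-4263387: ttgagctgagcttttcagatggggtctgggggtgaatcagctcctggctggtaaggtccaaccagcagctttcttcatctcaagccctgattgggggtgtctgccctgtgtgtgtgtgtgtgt
Downstream of *Ptgs2*, chr1:150108775-150108930: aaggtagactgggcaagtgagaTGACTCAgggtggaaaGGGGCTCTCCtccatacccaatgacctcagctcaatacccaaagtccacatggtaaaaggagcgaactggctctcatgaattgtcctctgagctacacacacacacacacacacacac
The capitals in *Il6* are a C/EBP match at bases 82 to 89 and an NF-kB match at bases 166 to 175. In *Cxcl1* an NF-kB match at bases 187 to 196 overlapped one on the other strand at bases 188 to 197. *Cxcl11* had an NF-kB match at bases 89 to 98 and the AP-1 letters at bases 103 to 109, and *Ptgs2* had AP-1 at bases 23 to 29 and NF-kB at bases 39 to 48. The *Icam1* and *Lif* sequences held none of the searched motifs. CpG, the dinucleotide that carries most DNA methylation in mammals, occurred 10 times in the *Cxcl1* sequence, 5 times in *Il6*, 3 times in *Cxcl11*, 2 times in *Icam1*, once in *Ptgs2* and 0 times in *Lif*.

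Counts were compared after TCKO was scaled by 1.64 to the WT total. The ratio given below is the log2 of TCKO over WT with 1 count added to each, the first count of a pair is that of WT and the second that of TCKO before scaling, and the range in parentheses is a 95% Wilson interval of the TCKO share, which covers counting error only. Reads were counted without molecular identifiers, so they are not independent molecules. In cultures of mixed cells, fewer cells of a type and less open chromatin per cell cannot be told apart, and accessibility is not expression. At the targeted genes, *Tet1* held 6884 counts in WT and 3697 in TCKO, *Tet2* held 2992 and 1543, and *Tet3* held 5789 and 3270, with 10 kb on either side. These sums do not check the knockout, because deletion of a floxed exon need not close the rest of the gene.

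The inflammatory regions as a group held about the same share of reads in both genotypes. They took 69043 WT counts, 0.121% of the total, and 40333 TCKO counts, 0.117%. Their median log2 ratio was 0.03, beside 0.06 for all regions, and their quartiles were -0.33 and 0.45, beside -0.30 and 0.54. At least 2-fold lower in TCKO were 10 of the 208 regions (4.81%), against a background of 4.51% of all regions, and at least 2-fold higher were 14 (6.73%), against 12.3%. The lower share was thus near its background and the higher share was below its own.

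The split into 10 lower and 14 higher regions moved with the scaling. It was 14 and 13 with TMM, 14 and 12 after loess, and 39 and 3 with a factor of 1.08, which sets both genotypes to the same peak caller background. All regions moved as well. They went from 4.51% lower and 12.3% higher to 5.52% and 10.9% with TMM and 5.78% and 9.40% after loess. With the peak caller background they were at 19.8% and 3.93%. Values below are therefore read against the median of all regions under the same scaling, which was -0.53 with the peak caller background.

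**Figure D1:**
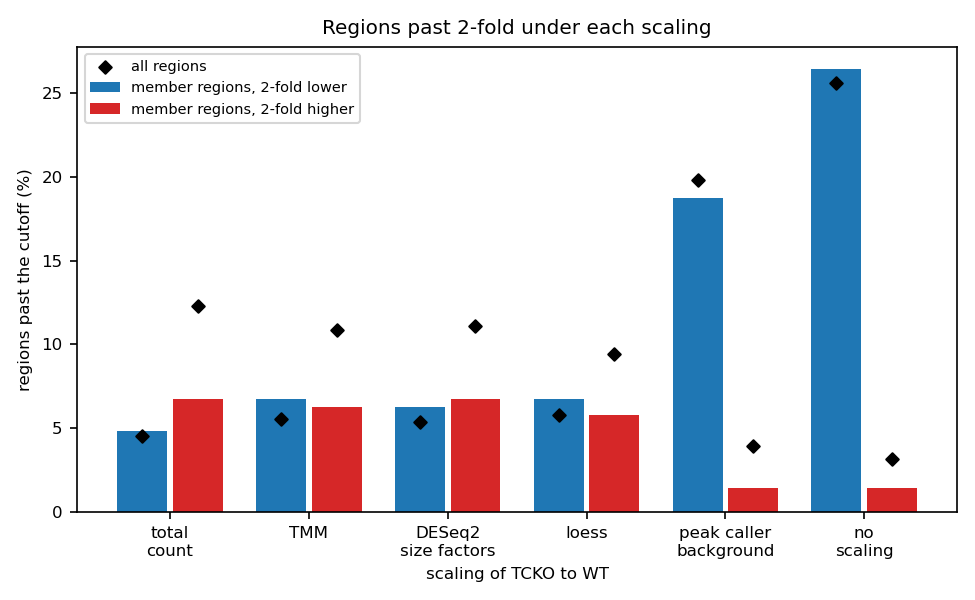
Share of regions past a fold of 2 (%) for 6 ways of scaling TCKO to WT, with bars for the 208 inflammatory regions and diamonds for all 255864 regions. With the total count 4.81% were lower and 6.73% higher. With the peak caller background and with no scaling lower regions outnumbered higher ones, among the inflammatory regions and among all regions alike.

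The higher regions were for the most part weakly covered. Summed over both genotypes the median inflammatory region held 246 counts, against 147 in the whole table. Of the 118 with at least 200 counts, 6 were lower (5.08%, background 3.31%) and 3 higher (2.54%, background 4.29%). Of the 90 with fewer counts, 4 were lower (4.44%, background 5.31%) and 11 higher (12.2%, background 17.6%). In both groups of counts the higher share lay below its background.

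**Figure D2:**
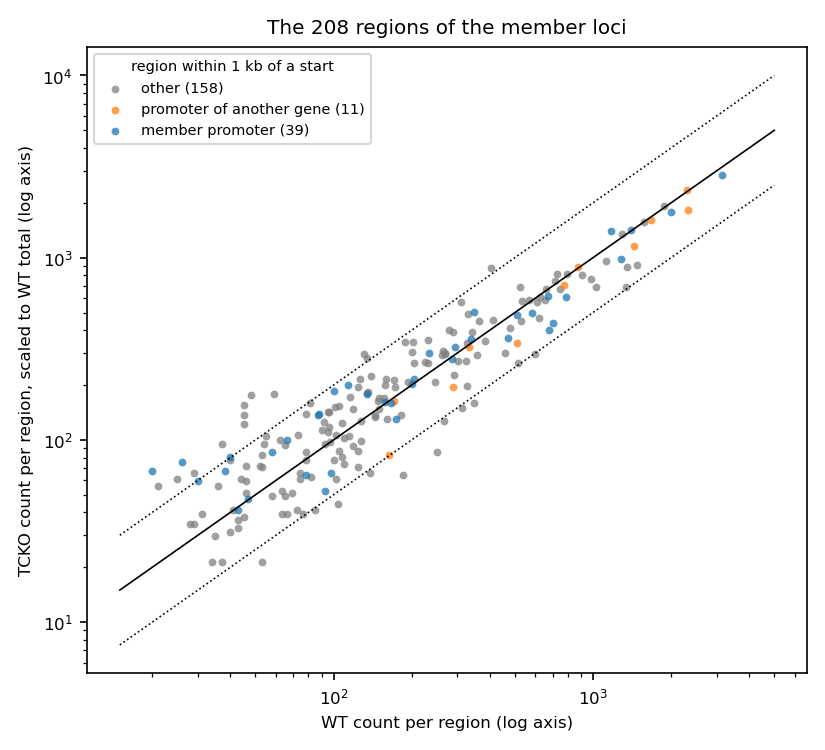
Each point is one of the 208 regions, with its WT count on the x axis and its TCKO count scaled to the WT total on the y axis, both on log axes, coloured by position. The outer lines mark a fold of 2 without the added count, so a region near *Il33* with 40 and 49 counts lies just past one but was not called. The other points beyond them are the 10 lower and 14 higher regions, and the higher ones cluster at low counts.

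Promoters of the inflammatory genes were next compared, to ask whether the sites where transcription starts had changed. A promoter region had its midpoint within 1 kb of an annotated start, and 27 of the 35 genes had one. *Ccl5*, *Ccl11*, *Ccl20*, *Il1a*, *Il1b*, *Tnf*, *Csf2* and *Csf3* had none within that distance. Sites a little farther away lay 1074 bp before the start of *Csf3*, with 269 and 183 counts, and 1386 bp past that of *Tnf*, with 90 and 69. The other 6 had no region with its midpoint within 2 kb. The median log2 ratio of the 39 promoter regions was 0.03, beside -0.07 for all 22832 promoter regions of the table. None was 2-fold lower, against 1.27% of all promoter regions, and 2 were higher, against 2.71%. The other regions divided into 158 away from starts, with a median of 0.06, 10 lower (6.33%) and 12 higher (7.59%), and 11 at the starts of neighbouring genes, with a median of -0.12. All regions outside promoters had a median of 0.09, with 4.83% lower and 13.2% higher.

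Among the chemokine promoters the CXC gene *Cxcl1* and the CC genes *Ccl7* and *Ccl2* were low in TCKO cells. The *Cxcl1* promoter region, whose NF-kB letters are shown above, held 704 WT and 268 TCKO counts, a ratio of -0.67 (-0.88 to -0.47). CXCL1 draws neutrophils. That of *Ccl7* held 675 and 244 counts, a ratio of -0.75 (-0.96 to -0.54), and that of *Ccl2* held 784 and 370, a ratio of -0.37 (-0.54 to -0.19). CCL2 and CCL7 both draw monocytes, and their starts lie about 10 kb apart on chromosome 11. The *Cxcl2* promoter, next to *Cxcl1* on chromosome 5, was weak, with 43 and 25 counts and a ratio of -0.06 whose interval included 0. The *Cxcl14* promoter held 581 and 301 counts (-0.23), *Cxcl12* 511 and 295 (-0.08), *Cx3cl1* 672 and 374 (-0.13) and *Cxcl13* 78 and 39 (-0.28). Of these 4 promoters, the interval of *Cxcl14* alone lay below 0.

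Other chemokine promoters stood at or above an equal share. *Cxcl10*, an interferon-induced chemokine, had 234 and 183 counts (0.36), *Cxcl5* 134 and 108 (0.40), *Cxcl3* 88 and 84 (0.64) and *Cxcl16* 294 and 198 (0.15). *Cxcl9* had only 47 and 29 counts (0.02). The 2 promoter regions called higher were the *Cxcl11* region shown above, with 26 and 46 counts and a ratio of 1.505 (0.85 to 2.23), and 1 of *Ccl12*, with 20 and 41 counts and a ratio of 1.70 (0.99 to 2.52). Both rest on fewer than 50 counts in each genotype. GENCODE M21 lists *Cxcl11* as a polymorphic pseudogene. The stronger *Ccl12* promoter region had 38 and 41 counts (0.81) and that of *Ccl8* 100 and 113 (0.89). With the peak caller background *Cxcl10* (-0.24), *Cxcl5* (-0.20) and *Cxcl16* (-0.46) were below 0 but above the median of all regions under that scaling, -0.53, and *Cxcl9* (-0.57) was just below it. Promoter regions of the whole table had a lower median than all regions, -0.07 beside 0.06 with the total count. *Cxcl3*, *Cxcl11*, *Ccl12* and *Ccl8* stayed above 0.

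Among the cytokine promoters *Il6* was lower in TCKO cells. Its promoter region held 1277 and 598 counts, a ratio of -0.38 (-0.52 to -0.24). IL6 acts on osteoclast formation among many other targets. The *Ptgs2* promoter, of the inducible enzyme of prostaglandin synthesis, went the other way, with 1172 and 856 counts and a ratio of 0.26 (0.14 to 0.39). *Il11*, a cytokine of the IL6 family, had 348 and 307 counts (0.54), *Lif* of the same family 339 and 219 (0.09), and the alarmin gene *Il33* 66 and 61 (0.60). The peak caller background put all of these promoters at or below 0, with *Ptgs2* at -0.34 and *Il6* at -0.98, on either side of that median.

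The promoter of *Relb*, a subunit of NF-kB, held the most WT reads of any of the 208 regions, with 3145 and 1736 counts and a ratio of -0.14. *Nfkbia*, the gene of the inhibitor that NF-kB itself induces, had 2000 and 1082 counts at its promoter (-0.17), *Nfkb1* 471 and 220 (-0.38), and *Tnfaip3*, which encodes the feedback inhibitor A20, 1397 and 867 (0.03). The adhesion genes had 200 and 123 counts (*Icam1*, 0.02) and 287 and 169 (*Vcam1*, -0.05), with intervals that included 0. A weaker *Vcam1* promoter region was lower in TCKO, with 93 and 32 counts and a ratio of -0.81 (-1.40 to -0.25). The 2 regions next in WT reads lay at starts of neighbours, that of *Ckap2l* beside *Il1a* with 2322 and 1106 counts, and that of *Med11* beside *Cxcl16* with 2294 and 1422.

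Summed over each gene and its flanks, the inflammatory loci spread around the level of all genes. Their median log2 ratio was -0.05, beside -0.02 for 19332 protein-coding loci with a region. Of the 34 loci 19 were below 0 (55.9%, against 55.2% of all loci) and 15 above, so this split was near its background. Counting intervals lay below 0 at 14 loci, above 0 at 8 and across it at 12. Intervals were not counted over all loci. One locus, *Cxcl9*, was at least 1.5-fold lower, against a background of 0.843% of all loci, and 0 were 1.5-fold higher, against 4.91%. Shares of all loci past 1.5-fold were counted with the total count only. With the peak caller background all 34 lay below 0 and 20 were 1.5-fold lower, where the median of all loci, -0.63, was itself past 1.5-fold lower. TMM gave 3 lower loci, and the gene with the 2 kb before it gave 3 lower and 5 higher.

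**Figure D3:**
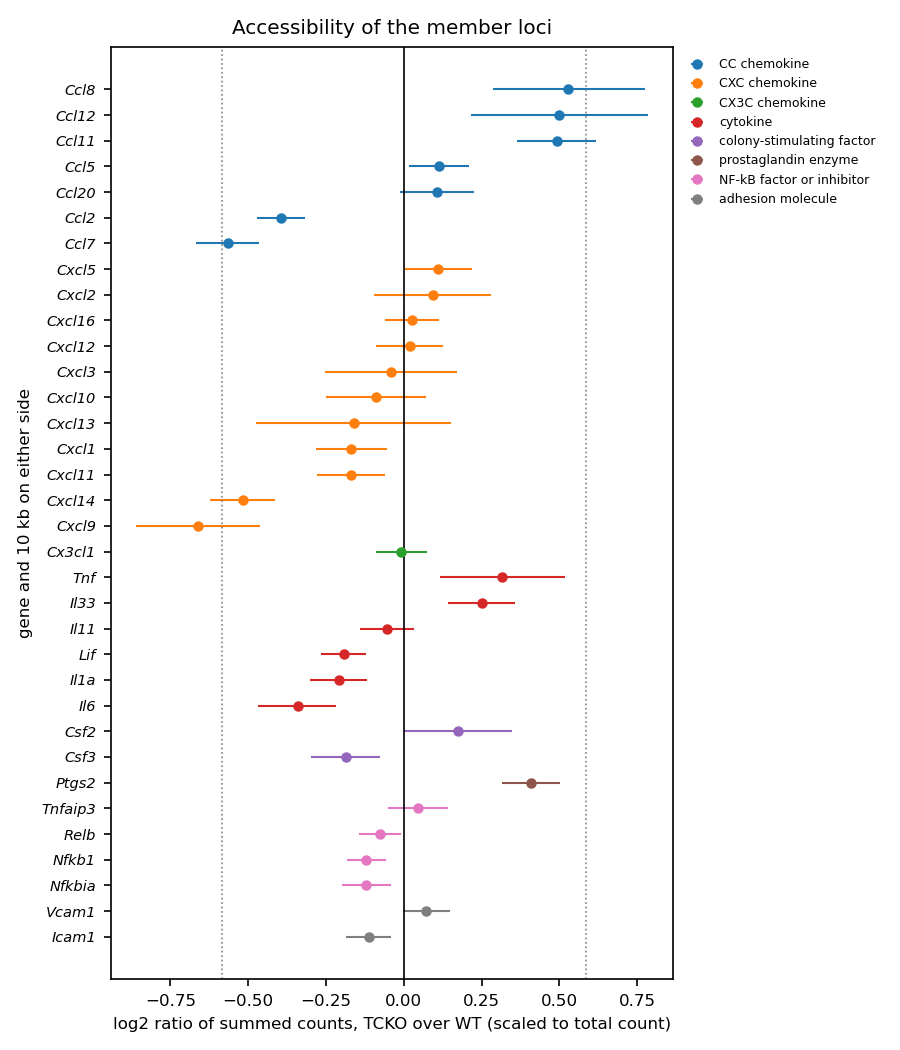
Log2 ratio of summed counts, TCKO over WT, for each of the 34 loci, coloured by the role of the gene, with bars for the 95% counting interval. Loci are grouped by role and ordered by ratio within each role, and range from -0.66 at *Cxcl9* to 0.53 at *Ccl8*.

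The 5 lowest loci with at least 500 counts were chemokine genes and *Il6*. *Cxcl9*, an interferon-induced chemokine that draws T cells (chromosome 5, 92321347 to 92328079), held 728 and 280 counts over 4 regions and had a ratio of -0.66 (-0.86 to -0.46). *Ccl7* (chromosome 11, 82045712 to 82047525) held 2608 and 1071 counts over 7 regions, -0.57 (-0.67 to -0.46). *Cxcl14*, which is made by many epithelial and mesenchymal cells (chromosome 13, 56288643 to 56296551), held 2473 and 1050 over 6 regions, -0.52 (-0.62 to -0.41). These 3 had overlapping intervals, so their order is not resolved. *Ccl2* (chromosome 11, 82035571 to 82037453) followed with 4313 and 1996 counts over 9 regions, -0.39 (-0.47 to -0.32), and *Il6* (chromosome 5, 30013114 to 30019981) with 1567 and 752 over 5 regions, -0.34 (-0.47 to -0.22). *Ccl2* shared 5 of its 9 regions with a neighbouring gene, so the values of *Ccl2* and *Ccl7* are not separate observations. With 25 kb on either side *Cxcl9* was at -0.21 and *Ccl7* at -0.17.

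The 5 highest loci with at least 500 counts were *Ccl8*, *Ccl11*, *Ptgs2*, *Tnf* and *Il33*. *Ccl8* (chromosome 11, 82115185 to 82116799) held 287 and 252 counts over 3 regions and had a ratio of 0.53 (0.29 to 0.77). *Ccl11*, the eosinophil attractant eotaxin (chromosome 11, 82057823 to 82062955), held 1079 and 923 over 4 regions, 0.49 (0.37 to 0.62), all of them outside the gene and the 2 kb before it. *Ptgs2* (chromosome 1, 150100031 to 150108227) held 2029 and 1638 over 8 regions, 0.41 (0.31 to 0.50). *Tnf* (chromosome 17, 35199381 to 35202007) held 454 and 344 over 2 regions, 0.32 (0.12 to 0.52). Of these counts 364 and 275 lay in an exon of the neighbour *Ltb*. The region within *Tnf* held 90 and 69, 0.33 (-0.12 to 0.78), an interval that included 0. *Il33* (chromosome 19, 29925114 to 29960718) held 1647 and 1192 over 11 regions, 0.25 (0.14 to 0.36). All 5 turned to between -0.36 and -0.08 with the peak caller background, under which the median of all loci was -0.63. With 25 kb on either side *Ccl8* was at -0.04 and *Ccl11* at -0.13.

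The other 24 loci lay between -0.21 and 0.50. Among the chemokines *Ccl12* was at 0.50 with 400 counts in all, *Ccl5*, *Ccl20* and *Cxcl5* at 0.11 each, *Cxcl2* at 0.09, *Cxcl16* at 0.03, *Cxcl12* at 0.02, *Cx3cl1* at -0.01, *Cxcl3* at -0.04, *Cxcl10* at -0.09, *Cxcl13* at -0.16, and *Cxcl1* and *Cxcl11* at -0.17 each. CCL20 draws cells that carry CCR6, and CXCL13 draws B cells. Among the cytokines and colony-stimulating factors *Csf2* was at 0.17, *Il11* at -0.05, *Csf3* and *Lif* at -0.19 each and *Il1a* at -0.21. The NF-kB genes were at 0.05 (*Tnfaip3*), -0.08 (*Relb*) and -0.12 (*Nfkb1* and *Nfkbia*), and the adhesion genes at 0.07 (*Vcam1*) and -0.11 (*Icam1*). These sums can rest on a neighbour. Of the 4183 WT counts of *Icam1*, 1680 lay near the start of *Icam5* and 334 near that of *Icam4*. A region in an exon of *Icam5* held another 627 WT counts, and a further exonic region 231. Of the 1882 WT counts of *Csf3*, only 269 lay in the region 1074 bp before its start, which was at 0.16. All its other regions lay within *Med24*, among them one in an exon with 654 WT counts. Without regions at the starts of other genes, an alternative added with the data in view, *Il1a* went from -0.21 to 0.84 and *Il11* from -0.05 to 0.48. *Il1a* had lost the *Ckap2l* start, and was then the 1 locus past 1.5-fold higher. It then rested on a region with 136 and 112 counts and one with 131 and 180.

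Within the CC cluster on chromosome 11 the ratio changed from one end to the other. The stretch of *Ccl2*, *Ccl7* and *Ccl11* held 5392 and 2919 counts over 13 regions and had a ratio of -0.17 (-0.23 to -0.10). The stretch of *Ccl12* and *Ccl8* beyond it held 345 and 334 over 5 regions, 0.67 (0.45 to 0.89). In the first stretch each region from the most-read *Ccl2* promoter region to the one just past *Ccl7* lay below 0. Those upstream of it were mixed, with a second *Ccl2* promoter region at 0.64 (87 and 83 counts) and a strong one at -0.23 (1127 and 585). An intergenic region between *Ccl2* and *Ccl7* (82041687 to 82042478) held 599 and 180 counts, a ratio of -1.01 (-1.26 to -0.78). A region 9285 bp past the start of *Ccl11* (82066701 to 82067516) held 403 and 532, a ratio of 1.12 (0.93 to 1.30). The latter stayed above 0 with the peak caller background, at 0.51. On chromosome 5 the stretch of *Cxcl9*, *Cxcl10* and *Cxcl11* held 2886 and 1503 counts over 11 regions, -0.22 (-0.31 to -0.13), and that of *Cxcl1* and *Cxcl2* held 1943 and 1088 over 7, -0.12 (-0.23 to -0.01).

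**Figure D4:**
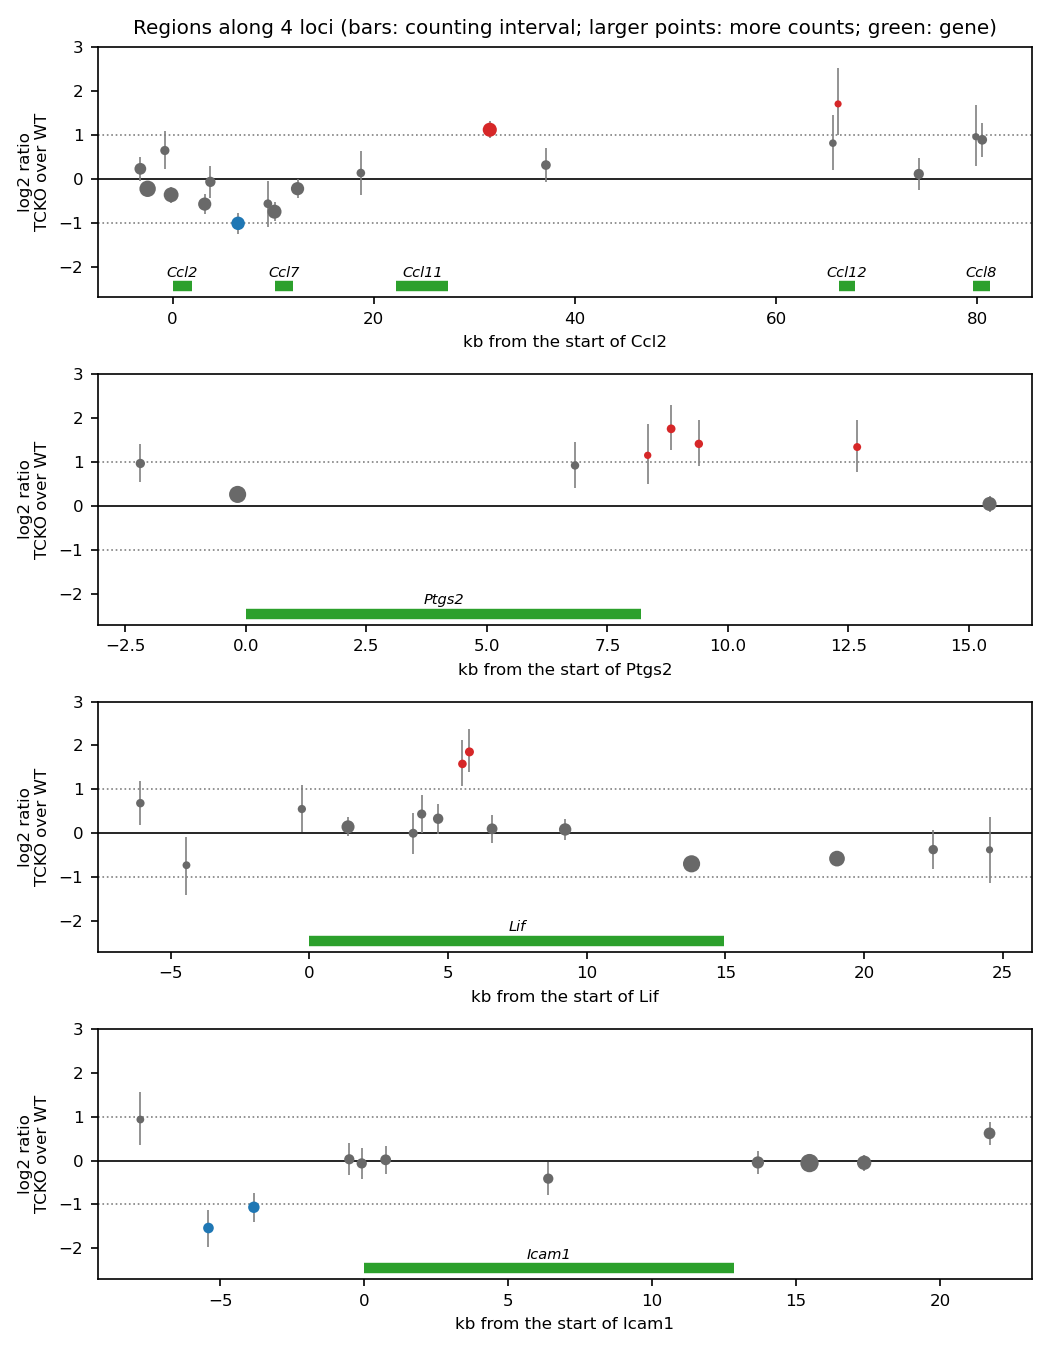
Log2 ratio of single regions against distance in kb from a gene start at 4 loci, with bars for the 95% counting interval, larger points for more counts and green bars for genes. In the CC cluster the points from the most-read *Ccl2* promoter region to just past *Ccl7* lie below 0 and those past *Ccl11* lie above it.

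Single regions past 2-fold lay away from promoters, apart from the *Cxcl11* and *Ccl12* ones. The lowest of those with at least 100 counts in one genotype was the region upstream of *Icam1* shown above (chromosome 9, 21010447 to 21010691). It held 250 and 52 counts, a ratio of -1.54 (-1.98 to -1.12). ICAM1 lets leukocytes bind to cells. A second region upstream of *Icam1* (21011927 to 21012367) held 314 and 91 counts, -1.06 (-1.41 to -0.73). Both lay within 5416 bp before the start, where the promoter region itself was at 0.02.

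An intron of *Nfkb1* held the next lowest (chromosome 3, 135592110 to 135592335), with 185 and 39 counts and a ratio of -1.51 (-2.02 to -1.03). This region and the first of *Icam1* were the 2 of the 10 whose intervals lay wholly past 2-fold. Such intervals were not counted over all regions. *Nfkbia* had 2 low intergenic regions on chromosome 12, one at 55500612 to 55500796 with 104 and 27 counts (-1.21) and one at 55487963 to 55488088 with 138 and 40 (-1.06). An exon of *Cxcl9* (chromosome 5, 92323329 to 92323588) held 347 and 97 counts, -1.12 (-1.45 to -0.80), and so 347 of the 728 WT counts of that locus. An intron of *Med24* within the *Csf3* window (chromosome 11, 98708086 to 98708503) held 266 and 77, -1.07 (-1.44 to -0.71). The remaining lower regions had under 100 counts in each genotype, near *Cxcl3* with 53 and 13 (-1.27) and near *Cxcl14* with 85 and 25 (-1.03). All 8 lower regions with at least 100 counts in one genotype stayed 2-fold lower under each scaling tried.

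At *Cxcl14* and *Lif* the largest distal sites fell short of 2-fold. A region 7813 bp upstream of *Cxcl14* (chromosome 13, 56303776 to 56304953) held 1337 and 418 counts, -0.96 (-1.12 to -0.80), and so more than its promoter region. An exon of *Lif* (chromosome 11, 4270873 to 4271800) held 1484 and 557, -0.70 (-0.84 to -0.56). At *Cx3cl1*, of the membrane-bound chemokine fractalkine, a region 15909 bp past the start held 1358 and 539, -0.62 (-0.76 to -0.47). Well-read sites at other loci were equal in both, such as one in the *Vcam1* window with 1576 and 960 (0.00) and one in the *Ccl5* window with 1872 and 1175 (0.05). Just inside the lower cutoff was the region between *Ccl2* and *Ccl7* at -1.01, and just outside it one near *Il1a* with 164 and 50 counts at -0.99.

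Higher regions with at least 100 counts in one genotype numbered 5. The intron of *Lif* shown above (chromosome 11, 4263265 to 4263387) held 48 and 107 counts, a ratio of 1.85 (1.38 to 2.36). A second region of that intron, with 45 and 83 counts, was at 1.58 (1.08 to 2.12). Neither had a peak summit in WT, and both lay in the same gene as the low exon site above. An intron of *Il33* (chromosome 19, 29942545 to 29942711) held 59 and 108, 1.57 (1.13 to 2.05). A region 6109 bp upstream of *Il1a* (chromosome 2, 129315874 to 129316289) held 131 and 180, 1.17, and one past *Cx3cl1* (chromosome 8, 94789299 to 94789556) held 134 and 172, 1.07 (0.75 to 1.40), next to the low site of that locus. The other was the *Ccl11* region. The *Cx3cl1* region lay just inside the cutoff, and one near *Il33* with 40 and 49 counts (0.99) just outside.

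*Ptgs2* was the locus with most higher regions. Of its 8 regions 0 lay below 0, the median was 1.06 and 4 were 2-fold higher, all past the 3' end of the gene. They held 29 and 40 counts (1.15), 45 and 94 (1.76), 45 and 74 (1.41) and 37 and 58 (1.34), the second being the sequence shown above with its AP-1 and NF-kB letters. Each has under 100 counts in each genotype, and they lie close together at one locus, so they are not separate observations. No background over all regions was counted for intervals wholly above 2-fold. The 4 regions with such an interval were the second *Ptgs2* region, both of the *Lif* intron and that of *Il33*. With the peak caller background 3 regions stayed 2-fold higher, namely that *Ptgs2* region, the first of *Lif* and that of *Ccl12*.

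By role, counts of called regions were small and are read against 4.51% lower and 12.3% higher in the whole table. Medians of the regions ran from -0.06 for the 49 of CXC genes to 1.06 for the 8 of *Ptgs2*. CC genes had 24 regions (0.18, 1 lower, 2 higher), *Cx3cl1* 9 (0.25, 0 lower, 1 higher), cytokines 43 (0.00, 0 lower, 4 or 9.30% higher) and colony-stimulating factors 9 (0.06, 1 lower, 0 higher). NF-kB factors and inhibitors had 45 (-0.01, 3 lower, 1 higher) and adhesion genes 21 (-0.04, 2 lower, 1 higher), and CXC genes had 3 lower and 1 higher.

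CpG content, which the choice of genes did not use, went with the ratio. The TET enzymes act on methylated CpG, so regions were divided by CpG per 100 bp in their central 200 bp. The 48 regions with at least 3 had a median log2 ratio of -0.06, with 1 lower and 0 higher. The 98 with 1 to under 3 had a median of 0.01, with 7 lower and 3 higher, and the 62 with under 1 had a median of 0.31, with 2 lower and 11 higher (17.7%). All regions showed the same order, with medians of -0.09, 0.03 and 0.23 and 2.75%, 10.7% and 17.7% higher. The order was that of the whole table, but in the middle class 3.06% of the inflammatory regions were higher, against 10.7%. Lower were 4.15%, 5.56% and 3.35% of all regions in the 3 classes, against 2.08%, 7.14% and 3.23% here. Read depth fell with CpG content as well. Median counts over both genotypes were 598.5, 226 and 175 in the 3 classes here, and 419, 147 and 116 over all regions. The median ratio of all regions was -0.02 at 200 counts or more and 0.17 below 200. CpG content was not tested apart from read depth.

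**Figure D5:**
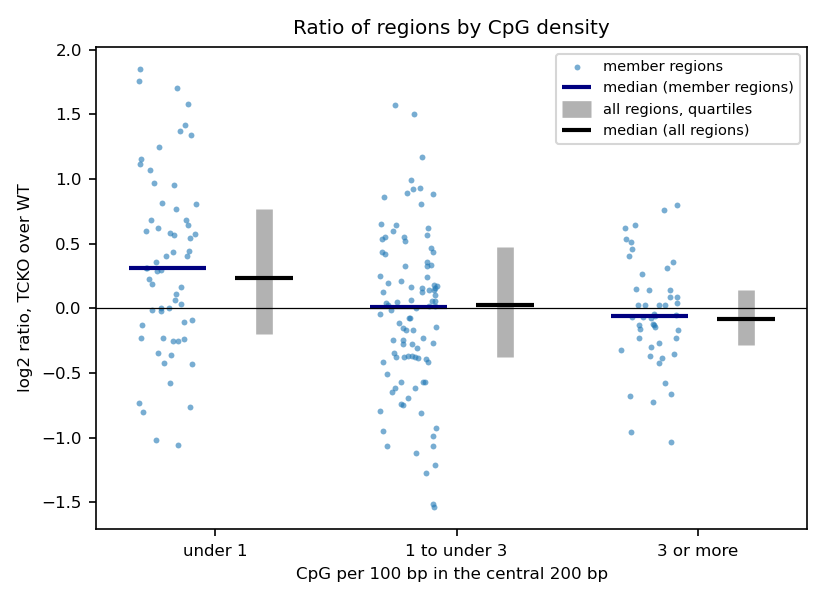
Log2 ratio of single regions, TCKO over WT, in 3 classes of CpG per 100 bp. Blue points are the 208 inflammatory regions with their medians as lines, and grey bars are the quartiles of all regions with the median in black. Medians rise from -0.06 in the CpG-dense class to 0.31 in the CpG-poor class.

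Motif letters were counted in the central 200 bp on both strands. The NF-kB consensus lay in 18 of the 208 regions (8.65%), against 2.38% of all regions. Of these 18, 0 were lower and 3 higher, and their median was 0.09, beside 0.03 for the rest. Of all regions with the consensus 3.95% were lower and 9.30% higher, with a median of 0.02 beside 0.07 for the rest. The 3 were the *Ptgs2* and *Cxcl11* regions shown above and the second of the *Lif* intron, all weakly read. Regions with NF-kB letters and many reads included the promoters of *Il6* (-0.38) and *Cxcl1* (-0.67) with intervals below 0, that of *Cxcl10* with one above 0 (0.36, 0.08 to 0.64), and the large site near *Ccl5* (0.05) with one that included 0.

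The AP-1 letters TGACTCA lay in 42 regions (20.2%), against 18.6% of all. Their median was 0.33, beside -0.01 for the rest, and over all regions it was 0.44 beside 0.00. They were in 6 of the 14 higher regions and 0 of the 10 lower ones, and in 33.6% of all higher and 5.37% of all lower regions. The core of the interferon response element, GAAA and GAAA with any 2 bases between, lay in 9 regions (4.33%, against 2.25%), of which 0 were past 2-fold, where 6.41% of all such regions were lower and 10.5% higher. The Runt letters TGTGGTT lay in 15 (7.21%, against 8.72%), with 1 lower and 0 higher, where 5.26% and 11.3% of all regions with these letters were. The C/EBP letters TTGCNNAA lay in 22 (10.6%, against 8.81%), with 2 lower and 2 higher, where 5.70% and 11.4% of all such regions were. A match is a string of letters, not a bound site.

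Peak summits, called by the authors in each genotype separately, divided the regions further. Summits of both lists lay in 141 of the 208 regions (67.8%, against 56.8% of all regions). In the WT list alone they lay in 54 (26.0%, against 33.0%), and in the TCKO list alone in 13 (6.25%, against 10.2%). A summit in one list did not mean an absence of reads in the other. The WT-only regions had median counts of 75 and 36 and a median ratio of -0.36, and the TCKO-only regions of 40 and 47 and a median of 1.25.

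Other genes of the pathway were then read by the same sums. Of 19 other chemokine genes 17 had a region, with a median locus ratio of 0.16, 0 at 1.5-fold lower and 2 higher, from *Pf4* (1273 and 678 counts, -0.19) to *Ccl22* (464 and 425, 0.59). Only 5 of the 19 had a promoter region. The 29 receptor genes had a median of 0.03, with 0 lower and 4 higher, from *Ccr7* (1351 and 615, -0.42) to *Ccr3* (326 and 331, 0.74). The 18 other NF-kB pathway genes all had a promoter region, a median of -0.07 and 0 past 1.5-fold, from *Map3k14*, the kinase of the alternative pathway (7879 and 3977, -0.27), to *Rel* (3817 and 2732, 0.23). Over all protein-coding loci the median was -0.02, with 0.843% at 1.5-fold lower and 4.91% higher.

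Markers of cell types were read at the same loci, since leukocytes and endothelial cells also use these genes. All 8 osteoblast markers had a promoter region, with summed counts of 4038 in WT and 3850 in scaled TCKO, and their loci had a median ratio of -0.08. Of 12 macrophage or osteoclast markers 8 had one, and *Ptprc*, *Itgam*, *Tyrobp* and *Ctss* had none. Their promoter sums were 2746 and 3337, and their loci had a median of -0.05. Of 6 endothelial markers 4 had one, with sums of 980 and 1320 and a median of 0.36 over the loci, where *Emcn* and *Tie1* had none. Of 5 lymphocyte markers *Ms4a1* alone had one, with 38 and 67 counts before scaling, and the 5 skeletal muscle markers had none. The loci of these lymphocyte and muscle markers had medians of 0.35 and 0.28. The part of other cell types in the values above was not tested.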

How the data were processed

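Reads had been aligned by the authors with STAR 2.7.0e to GRCm38, kept where they mapped uniquely, merged over replicates and passed to MACS2 with its call-summits option. The labels name an RNA library kit and the study's methods a Tn5 kit. Removal of duplicate or mitochondrial reads and a shift for the transposase are not given in the sources used here. The authors deposited raw read counts per region, by their naming from bedtools multicov, and peak lists with a fold enrichment over local background, a ratio, and the −log10 of the p-value and q-value per summit, of which the q-value was not used. The pileup and background of each summit were solved from its fold and p-value, and the lowest background gave the alternative factor.

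Genes came from GENCODE M21 and sequences from the RefSeq genome of GRCm38, whose 21 chromosome sequences were long enough for the files. Median counts per region were 86 (WT) and 60 (TCKO), which sets the precision. The planned edgeR test needs replicates and was not run. Factors came from edgeR 4.0.16 and DESeq2 1.42.0 in R 4.3.3, and the rest from Python 3.11.15 with pandas 2.3.3, scipy 1.17.1 and statsmodels 0.14.6 (loess, span 0.3). The steps were tested on simulated data.

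All genes of the list are named. Regions named are the most-read promoter region of each gene and the 3 with most WT counts. Those past 2-fold with at least 100 counts in one genotype are named too, at most 10 in each direction. Loci given in full are the 5 lowest and 5 highest with at least 500 counts. Other regions were named after their values were seen. The genes, lists, motifs and rules were chosen with earlier results of these data known.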

Additional observations from a re-analysis of the deposited data

How the results depend on the processing

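No paired analysis was possible because each genotype has 1 merged column of counts. Neither fits without a single replicate nor the edgeR and DESeq2 tests could be run, and intervals hold no biological spread. Against 10 lower and 14 higher regions and medians of 0.03 (regions), 0.03 (promoters) and -0.05 (loci), no scaling gave 55, 3, -0.68, -0.68 and -0.76, and the peak caller background 39, 3, -0.57, -0.57 and -0.65. Both shift all regions alike by construction. Of all regions 25.6% were lower and 3.17% higher with no scaling, and 19.8% and 3.93% with the peak caller background. A fold of 1.5 gave 28 lower and 40 higher regions, a fold of 3 gave 0 and 3, and intervals wholly past 2-fold 2 and 4. The same shares were not counted over all regions, so these counts have no background. The gene with the 2 kb before it gave 2 and 6, and 25 kb on either side 17 and 35, since fewer or more regions are counted. With TMM, DESeq2 size factors, loess, 10 counts added and at least 50 counts, the counts stayed within 1.5 times. Promoters within 2 kb had a median of 0.04. TMM took the medians to -0.05, -0.05 and -0.12 and DESeq2 size factors to -0.04, -0.04 and -0.11, so those of regions and promoters changed sign. The counts were 10 and 14 without regions at starts of other genes, an alternative added with the data in view. Of the 34 loci, 1 was 1.5-fold lower as reported, against 3 (TMM), 2 (DESeq2), 20 (peak caller background) and 27 (no scaling). With these last 2 the medians of all loci, -0.63 and -0.74, were themselves past 1.5-fold lower. Of the 34 loci, 4 changed side of 0 with TMM, 2 with loess, 6 with 25 kb and 11 of 31 with the gene and 2 kb. Of 14 named regions past 2-fold, 0 changed direction under any scaling, but 1 of 6 stayed 2-fold higher with the peak caller background, and 6 of 8 stayed 2-fold lower with 10 counts added.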
